A study of Mus musculus with 45 samples.

Results

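The genes described here are Ifitm1, Ifitm2, Ifitm3 and Ifitm6, 4 interferon-induced transmembrane genes. They were taken by name from the deposited expression table, where they are 4 of 23594 gene rows, and all 4 were among the 8937 genes tested. The table gives TPM, a level corrected for gene length, of RNA from mononuclear phagocytes sorted out of the lungs of C57BL/6J mice. Alveolar macrophages (AM) live in the air spaces, interstitial macrophages (IM) in the lung tissue, and inflammatory monocytes (iMo) enter from the blood. Cells were taken at 0h, or at 2, 6 and 20h after intraperitoneal (ip) injection of lipopolysaccharide (LPS), the bacterial product sensed by Tlr4. The AM groups held 4, 2, 3 and 2 libraries at 0, 2, 6 and 20h, and each IM and iMo group held 2, which makes 8 libraries at 0h and 19 after ip LPS. All groups share the wild-type strain, and no transgene or deletion is named. The labels give neither age nor sex, and do not say whether libraries of a group come from separate animals, so p-values measure only the spread between these samples.

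Ifitm proteins are short membrane proteins of endosomes and the cell surface that hinder the fusion of enveloped viruses with the cell's membranes. Interferons induce their genes in most cells through receptors at the cell surface and Jak kinases, and LPS reaches the same pathway by way of Tlr4, Ticam1 and interferon beta. Ifitm3 is the member best known from the lung, where mice that lack it have severe influenza. Ifitm1 sits more at the cell surface, Ifitm2 and Ifitm3 more in endosomes, and Ifitm6 has been studied less.

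In the GENCODE annotation of the mouse genome (GRCm38/mm10) the 4 genes lie within 63.1 kb of chromosome 7. Ifitm2 (ENSMUSG00000060591.9) spans chr7:140954837-140955987 on the minus strand, and Ifitm1 (ENSMUSG00000025491.14) chr7:140967221-140969825 on the plus strand. Ifitm3 (ENSMUSG00000025492.6) spans chr7:141009586-141010770 and Ifitm6 (ENSMUSG00000059108.4) chr7:141015699-141017924, both on the minus strand. Their sequences are close enough for short reads to be ambiguous. Of all 50-base stretches of its transcripts, Ifitm2 shares 48.5% with another gene. It shares 36.1% with the readthrough gene Gm45717, which overlaps it on the same strand, 14.9% with Gm11951, 12.4% with Gm8865 and 3.3% with Ifitm3. Ifitm3 shares 10% and Ifitm1 5.02%, whereas Ifitm6 shares none. How reads that match several genes were counted is not given in the sources used here, so the level of Ifitm2 is the least certain of the 4.

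The promoters of the members are described here, and their part in the levels and responses below was not tested. RefSeq promoter sequences (GRCm38.p6, 250 bases before to 50 after each start, 1 entry for each member) were searched on both strands for the cores of 3 motifs. The interferon-stimulated response element (GAAANNGAAA) occurs in 3.44% of the 32851 promoters in the table, the gamma-activated site (TTCNNNGAA) in 8.3% and the TATA box (TATAAA) in 13.6%. Ifitm3 has 2 response element cores just after its start, at bases 3 to 12 and 20 to 29, as do 0.225% of promoters with 2 or more. Its 1 gamma-activated core, at bases 14 to 22, overlaps the second of them. Ifitm2 has 1 response element core, 46 to 37 bases before its start, and 1 TATAAA on the opposite strand. Ifitm6 has a gamma-activated core 10 to 2 bases and a TATAAA 46 to 41 bases before its start, and no response element core in this window. Ifitm1 matched none of the 3 in its window. GENCODE lists 3 transcripts each for Ifitm1 and Ifitm6, and both Ifitm6 stretches below lie inside the annotated span of the gene. Any other starts were not searched, so the absences hold for the 1 window of each gene. In these 30-base stretches, each read on the minus strand from 5′ to 3′, capitals mark the core that the line names. The gamma-activated core of Ifitm3 also lies in its stretch and is not marked. The Ifitm3 stretch and the Ifitm6 stretch of the gamma-activated core overlap annotated exons.
Ifitm3, 2 response element cores, chr7:141010714-141010743: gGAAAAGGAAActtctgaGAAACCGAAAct
Ifitm2, response element core, chr7:140955988-140956017: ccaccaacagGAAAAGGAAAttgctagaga
Ifitm6, gamma-activated core, chr7:141016883-141016912: ccatatgaacTTCCTTGAAacaagagcttc
Ifitm6, TATA box, chr7:141016921-141016950: ccacaatggttcTATAAAagtgcctgtgac

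Libraries are named by the letter and code that end their titles, with N put before the code that carries no letter. The code of A171227 holds every 0h library except AM N160623, and the codes of N160623 and A161219 hold all ip libraries, so that outside AM the code and the treatment cannot be told apart. Where title code is a term in the model below, the effect of the A171227 code is estimated only from AM at 0h. It rests there on the single library N160623 and is carried over to IM and iMo. Columns summed to 331473 to 551635 TPM, with 4068 to 7298 genes at 5 TPM or more. In the 18 columns of nasal LPS the row names do not match the values. Their log2(TPM + 1) correlated across rows with the 0h and ip columns at a Pearson r of 0.0097 to 0.025, against 0.757 to 0.989 among those columns, and Actb had a median of 0 TPM there. The nasal columns were therefore not used. The labels were checked against marker lists. The 10 AM markers summed to 1279 to 3794 TPM in AM libraries, 43.0 to 204 in IM and 9.21 to 236 in iMo, so that AM stood apart. The 7 classical monocyte markers summed to 8231 to 12800 TPM in iMo and 3092 to 6205 in IM at 0h, but to 2193 to 6733 in iMo and 2072 to 6199.8 in IM after LPS. The 9 IM markers summed to 6149 to 7636 TPM in IM and 1324 to 1374 in iMo at 0h, but to 425 to 2213 in IM and 207 to 1865 in iMo after LPS. Both lists separated IM from iMo at 0h. After LPS the monocyte list overlapped between them at all 3 times and the IM list at 2h. In all 8 IM libraries the 12 neutrophil markers reached 11176 to 56846 TPM, led by S100a8 and S100a9, against 25.0 to 442 in AM and 136 to 3087 in iMo. In bulk samples such as these, fewer cells of a type and less RNA per cell cannot be told apart.

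Before LPS, Ifitm transcripts were abundant in IM and iMo and scarce in AM. Ifitm3 stood at 1829 (A171227) and 2326 TPM (B171227) in IM and at 4778 (A171227) and 5168 TPM (B171227) in iMo, where its mean ranked 8 of 23594 rows. In AM it was at 30.2 (A171227), 3.87 (C171227), 10.5 (D171227) and 3.68 TPM (N160623). No AM library came near an IM or iMo library, and both iMo libraries were above both IM libraries. Overlap of libraries is given here and below as a description. The share of all genes whose libraries lie apart was not counted.

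Ifitm2 was the member with the highest level in AM at 0h, at 41.0 (A171227), 32 (C171227), 41.8 (D171227) and 16.0 TPM (N160623). It was at 878 (A171227) and 565 TPM (B171227) in IM, and at 1343 (A171227) and 936 TPM (B171227) in iMo. Ifitm6 was nearly silent in AM, at 3.81 (A171227), 0.928 (C171227), 1.05 (D171227) and 0 TPM (N160623), against 306 and 410 TPM in IM A171227 and B171227. In iMo it reached 1010.2 (A171227) and 909 TPM (B171227). For both genes the AM libraries lay below all others and the iMo libraries above the IM libraries.

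Ifitm1 had another order. It was highest in IM, at 151 (A171227) and 83.9 TPM (B171227), and lower in iMo, at 37.5 (A171227) and 12.5 TPM (B171227). AM libraries held 0.762 (A171227), 0.743 (C171227), 1.69 (D171227) and 0 TPM (N160623). The 3 cell types did not overlap, and Ifitm1 was the 1 member that was lower in iMo than in IM.

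**Figure D1:**
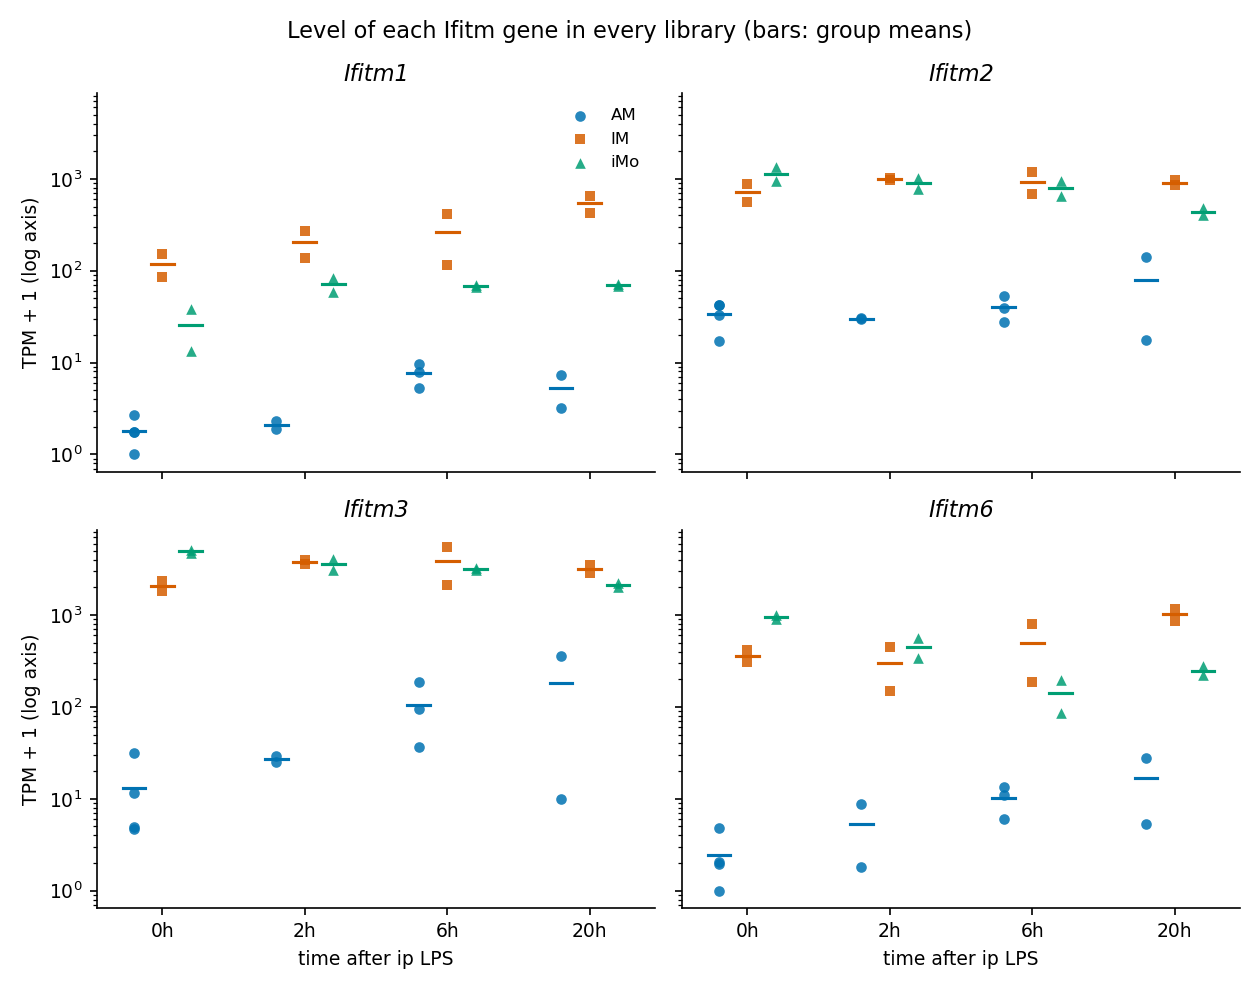
TPM + 1 of each Ifitm gene (log axis) in every library against time after ip LPS, with 1 point per library and a bar at the mean of each group. AM (circles) lie below IM (squares) and iMo (triangles) for all 4 genes at all times, and Ifitm1 is lower in iMo than in IM.

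The differences were tested with limma on log2(TPM + 1), with Benjamini-Hochberg adjustment over all 8937 genes, and a gene was called at an adjusted p under 0.05. Each log2 difference below is relative to the median of all genes in its comparison, while p-values and calls belong to the value before that subtraction. The scale understates changes of low genes. In IM against AM at 0h all 4 members were called higher, where 26% of all genes were called in either direction. Their median difference was 6.73, and that of all genes before the subtraction was 0.00495. Ifitm3 was higher by 7.76 (SE 0.88, limma adjusted p = 2.58e-07) and Ifitm6 by 7.41 (SE 0.70, limma adjusted p = 1.97e-08). Ifitm1 was higher by 6.06 (SE 0.49, limma adjusted p = 2.46e-09) and Ifitm2 by 4.47 (SE 0.54, limma adjusted p = 5.86e-07). The same comparison held differences in markers of further cell types. Endothelial markers (8 of 8 detected) summed to 561 to 754 TPM in IM and 5.99 to 93.6 in AM, fibroblast markers (5 of 5) to 328 to 362 and 4.36 to 81.9, lung epithelial markers (6 of 6) to 264 to 613 and 65.0 to 235, and lymphocyte markers (6 of 6) to 112 to 119 and 2.18 to 9.40. Neutrophil markers summed to 11176 and 22485 TPM in IM and 25.0 to 83.2 in AM. In iMo at 0h the endothelial, fibroblast and epithelial sums were 10.7 to 56.6, 7.49 to 10.1 and 21.2 to 25.6 TPM. The lymphocyte and neutrophil sums were 34.3 to 49.5 and 136 to 217 TPM there, above those in AM. The part of these markers in the Ifitm differences was not tested.

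In iMo against AM at 0h, where 29.6% of all genes were called, all 4 members were again called higher, with a median of 6.85 against 0.15 for all genes. Ifitm3 was higher by 8.88 (SE 0.88, limma adjusted p = 1.67e-08) and Ifitm6 by 8.70 (SE 0.70, limma adjusted p = 7.15e-10). Ifitm2 was higher by 5.00 (SE 0.54) and Ifitm1 by 3.60 (SE 0.49), with limma adjusted p-values of 4.82e-08 and 1.75e-06. Both comparisons share the AM libraries. The Ifitm1 value rests in part on single libraries, since it was 2.87 without iMo A171227 and 4.32 without iMo B171227, both called.

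In iMo against IM at 0h, 7.06% of all genes and 1 of the 4 members were called. Ifitm1 was lower in iMo by 2.46 on the log2 scale (SE 0.57, limma adjusted p = 0.00944). That call was lost without IM A171227 (a difference of -2.01, limma adjusted p = 0.175) and without iMo B171227 (-1.73, limma adjusted p = 0.265), and the difference was -3.18 without iMo A171227. Ifitm3 was 1.12 higher in iMo (SE 1.01, limma adjusted p = 0.592), Ifitm6 1.29 (SE 0.80, limma adjusted p = 0.406) and Ifitm2 0.53 (SE 0.62, limma adjusted p = 0.655). None of these 3 passed the test, and iMo libraries lay above IM libraries for each. With title code as a term Ifitm6 passed the test (1.29, limma adjusted p = 0.0403). Ifitm1 and the neutrophil markers moved together here, since the 12 markers summed to 11176 and 22485 TPM in IM at 0h and to 136 and 217 TPM in iMo, with Camp and Elane at 0 in both IM libraries and Ngp at 0 in both iMo libraries. Their part in the difference was not tested.

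Genes of the interferon pathway divided the cell types in the same comparisons. Of all genes, 26% were called in either direction in IM against AM at 0h and 29.6% in iMo against AM, and the list counts stand beside these shares. Of 24 type I interferon-stimulated genes, 23 were higher in IM than in AM at 0h and none lower, and all 24 were higher in iMo than in AM, with medians of 3.66 and 3.50. Ifi27l2a, which encodes a small mitochondrial membrane protein, had a mean of 27.8 TPM in AM and 1517 TPM in IM (log2 difference 5.74, limma adjusted p = 3.98e-10). Of 16 tested genes of interferon receptors and signalling, 8 were higher and 1 lower in IM than in AM, and 9 were higher and 1 lower in iMo than in AM. Irf7, the factor that amplifies interferon production, had a mean of 2.29 TPM in AM, 200.1 in IM (5.86, limma adjusted p = 4.2e-08) and 244 in iMo (6.08, limma adjusted p = 9.28e-09). Of 6 tested genes for entry restriction or modification of Ifitm proteins, 2 were higher and 2 lower in each of IM and iMo than in AM. Ly6e, a membrane-anchored factor that restricts coronavirus entry, had means of 109 TPM in AM, 719 in IM and 1049.7 in iMo. Ch25h, the enzyme that makes 25-hydroxycholesterol, was higher in AM, with means of 30.9 TPM against 2.02 in IM and 0.227 in iMo. Without IM B171227, 3 of the signalling genes were called between IM and AM, and without iMo A171227, 2 of the entry genes between iMo and AM. No gene of these 3 lists was called between iMo and IM at 0h with limma, beside 7.06% of all genes. In that comparison 4 stimulated genes and 0 of the others had an unadjusted limma p under 0.05, as did 1467 of all 8937 genes.

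The make-up of the family differed between cell types too. Summed over the 4 members, Ifitm transcripts were 0.686 to 1.6% of the column sum in IM libraries and 0.774 to 1.42% in iMo libraries, against 0.00515 to 0.159% in AM libraries. Ifitm3 supplied 55.4 to 78.4% of the sum in IM and iMo. In AM at 0h Ifitm2 supplied most, at 54.2% (A171227), 85.2% (C171227), 75.9% (D171227) and 81.3% (N160623), with Ifitm3 at 39.8, 10.3, 19.1 and 18.7%. By 6h of LPS Ifitm3 had the larger share in all 3 AM libraries, at 72% (A161219), 61.9% (B161219) and 49.4% (N160623). At 20h the AM libraries went apart, with Ifitm3 at 67.0% in A161219 and 27.9% in N160623. These shares are given as a description and depend on how reads that Ifitm2 shares with other genes, mainly Gm45717, were counted.

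**Figure D2:**
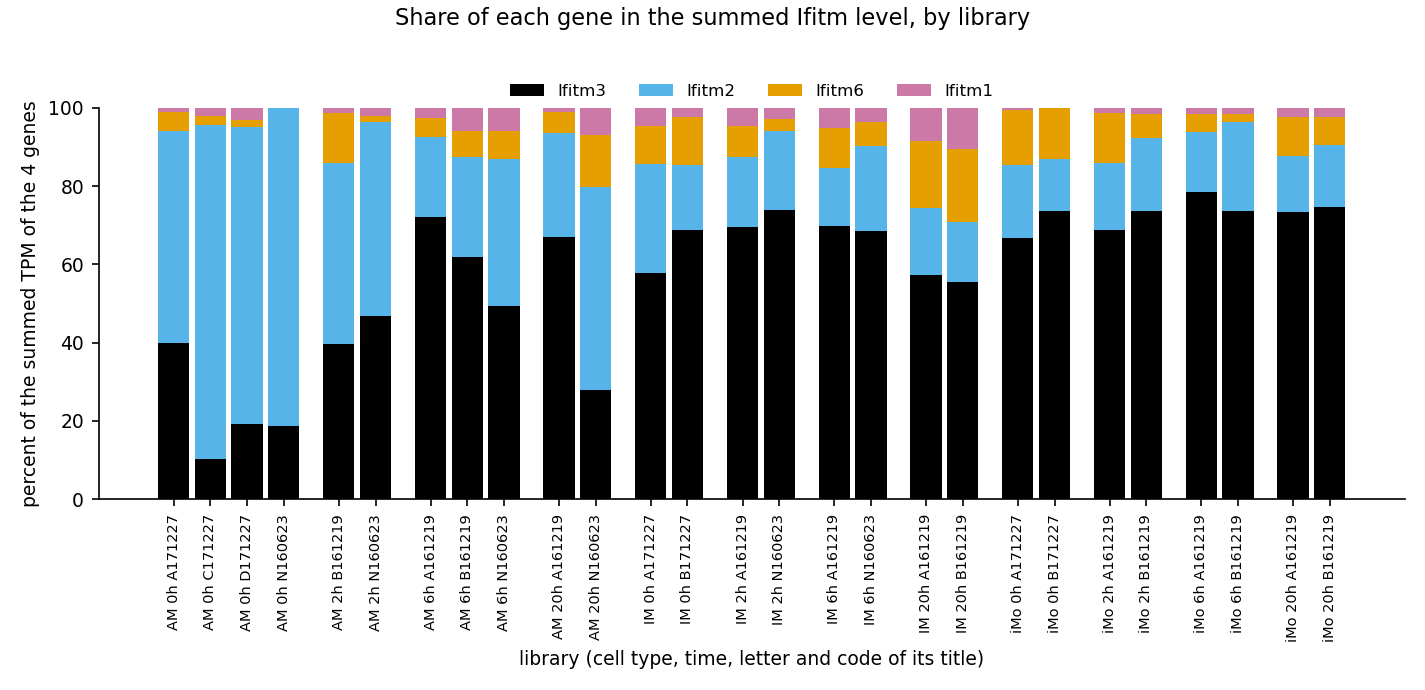
Percent of the summed TPM of the 4 Ifitm genes that each supplied (bars from 0 to 100), in each of the 27 libraries, ordered by cell type and time. Ifitm2 holds 54.2 to 85.2% in AM at 0h, while Ifitm3 holds 55.4 to 78.4% in all IM and iMo libraries.

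In AM, Ifitm3 and Ifitm1 were higher at 6h of ip LPS than at 0h. Ifitm3 was at 28 (N160623) and 24.4 TPM (B161219) at 2h, at 93.0 (B161219), 185 (A161219) and 35.5 TPM (N160623) at 6h, and at 8.92 (N160623) and 354 TPM (A161219) at 20h. All 6h libraries lay above all 0h libraries, whereas at 20h A161219 was the highest of all AM libraries and N160623 lay within the 0h range. Ifitm1 was at 1.29 (N160623) and 0.884 TPM (B161219) at 2h, at 8.76 (B161219), 6.81 (A161219) and 4.28 TPM (N160623) at 6h, and at 2.23 (N160623) and 6.25 TPM (A161219) at 20h. The 6h and 20h libraries lay above those of 0h, and the 2h libraries within their range.

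Ifitm6 was at 0.804 (N160623) and 7.73 TPM (B161219) at 2h in AM, at 9.96 (B161219), 12.5 (A161219) and 5.09 TPM (N160623) at 6h, and at 4.28 (N160623) and 27.1 TPM (A161219) at 20h. Its 6h and 20h libraries did not overlap those of 0h. Ifitm2 was at 29.6 (N160623) and 28.6 TPM (B161219) at 2h, at 38.6 (B161219), 52.6 (A161219) and 27 TPM (N160623) at 6h, and at 16.6 (N160623) and 141 TPM (A161219) at 20h, overlapping 0h at all 3 times.

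At 2h in AM no member was called, with 0.134% of all genes called. An unadjusted limma p under 0.05 was found for 0 of the 4 members and for 283 of all 8937 genes. At 6h, where 1.3% of all genes were called, 2 of the 4 members rose, with a median of 2.32 over the 4 and -0.16 for all genes. Ifitm1 rose by 2.28 (SE 0.44, limma adjusted p = 0.00939) and Ifitm3 by 3.33 (SE 0.77, limma adjusted p = 0.0384). Ifitm6 was 2.36 above 0h (SE 0.61, limma adjusted p = 0.0871) and Ifitm2 0.46 (SE 0.47, limma adjusted p = 0.862). Both calls at 6h were sensitive to single libraries. Ifitm1 lost its call without 6h A161219 (limma adjusted p = 0.0703) or B161219 (limma adjusted p = 0.0947). Ifitm3 lost its call without 0h C171227, D171227 or N160623, with limma adjusted p-values of 0.143, 0.0677 and 0.0796, and without 6h A161219 or B161219, with 0.343 and 0.167. Without 0h A171227, the AM library of 0h with the most Ifitm3, Ifitm6 was called too (2.70, limma adjusted p = 0.0483). It was called also after rescaling without Rn45s and Lars2 (2.47, limma adjusted p = 0.00704) and with quantile normalization (2.25, limma adjusted p = 0.0274).

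At 20h in AM no member was called, with 0.112% of all genes called. An unadjusted limma p under 0.05 was found for 3 of the 4 members and for 805 of all 8937 genes. Ifitm3 was 2.95 above 0h (SE 0.88, limma adjusted p = 0.406), Ifitm6 2.85 (SE 0.70, limma adjusted p = 0.237) and Ifitm1 1.82 (SE 0.49, limma adjusted p = 0.399). The 2 libraries decide these values. With N160623 left out, A161219 alone gave 5.67 for Ifitm3 (limma adjusted p = 0.000194), 4.20 for Ifitm6 (limma adjusted p = 0.0135) and 2.62 for Ifitm2 (limma adjusted p = 0.0171), where the lone library is assumed to vary like the other groups. That library stood apart in its markers too. The 9 IM markers summed to 3820 TPM in A161219 and 21.8 TPM in N160623, and its AM markers to 1279 against 2011 TPM. Apoe alone made 2933 of the 3820 TPM, against 366 (A161219) and 294 TPM (B161219) in IM at 20h. C1qb, C1qa and Folr2 were at 416, 149 and 24.8 TPM in AM A161219, and at 2.83, 1.6 and 0.321 TPM in AM N160623. The part of these markers in the Ifitm values was not tested.

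Other cell types' markers moved with the AM values at 6h as well. The 12 neutrophil markers summed to 25.0 to 83.2 TPM at 0h, with Camp and Ly6g at 0, and to 377 to 442 TPM at 6h, all 12 detected in at least 1 library. The 7 classical monocyte markers summed to 5.13 to 21.0 TPM at 0h and, in the same order as Ifitm3, to 204 (A161219), 119 (B161219) and 30.3 TPM (N160623) at 6h. Their part in the Ifitm values was not tested. The N160623 libraries are the 1 set of AM libraries in which LPS and title code can be separated, with 1 library at each time and no test. In it Ifitm3 was at 3.68, 28, 35.5 and 8.92 TPM at 0, 2, 6 and 20h, Ifitm1 at 0, 1.29, 4.28 and 2.23, Ifitm6 at 0, 0.804, 5.09 and 4.28, and Ifitm2 at 16.0, 29.6, 27 and 16.6. All 4 were higher at 6h than at 0h within this code, where Ifitm1 and Ifitm6 started from 0 TPM. The share of all genes higher at 6h in this code was not counted. With title code as a term in the model, neither Ifitm1 (2.24, limma adjusted p = 0.112) nor Ifitm3 (3.02, limma adjusted p = 0.502) passed the test at 6h.

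In IM, Ifitm1 was higher at 20h than at 0h, and the other 3 members passed the test at no time. Ifitm1 was at 137 (N160623) and 268 TPM (A161219) at 2h, at 411 (A161219) and 115 TPM (N160623) at 6h, and at 651 (B161219) and 427 TPM (A161219) at 20h, against 83.9 and 151 TPM at 0h. The 20h libraries lay above all other IM libraries, and those of 2h and 6h overlapped 0h. Ifitm6 was at 149 (N160623) and 453 TPM (A161219) at 2h, at 801 (A161219) and 186 TPM (N160623) at 6h, and at 1175 (B161219) and 853 TPM (A161219) at 20h. Only its 20h libraries lay wholly above those of 0h.

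Ifitm3 was at 3551 (N160623) and 4002 TPM (A161219) at 2h in IM, at 5523 (A161219) and 2143 TPM (N160623) at 6h, and at 3469 (B161219) and 2865 TPM (A161219) at 20h. The 5523 TPM of A161219 at 6h was the highest level of any member in any library, and the libraries of 2h and 20h lay above those of 0h. Ifitm2 was at 960.0 (N160623) and 1022 TPM (A161219) at 2h, at 1184 (A161219) and 678 TPM (N160623) at 6h, and at 969 (B161219) and 847 TPM (A161219) at 20h. It lay wholly above 0h at 2h and overlapped 0h at 6h and 20h.

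At 2h in IM no member was called while 48.7% of all genes were, and at 6h no member while 25.5% of all genes were. None of the 4 had an unadjusted limma p under 0.05 at either time, while 4955 and 3491 of all 8937 genes did. The medians of the 4 were 1.42 and 1.08, and those of all genes -0.79 and -0.53. The values at 2h were 1.66 for Ifitm3 (SE 1.01, limma adjusted p = 0.492), 1.56 for Ifitm1 (SE 0.57, limma adjusted p = 0.273) and 1.29 for Ifitm2 (SE 0.62, limma adjusted p = 0.524). Before the median of all genes was taken off they were 0.87, 0.76 and 0.49, and Ifitm6 had the value -0.44 before and 0.35 after (limma adjusted p = 0.666).

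At 20h in IM 12.4% of all genes and 1 of the 4 members were called, with a median of 1.15 against -0.09 for all genes. Ifitm1 rose by 2.31 (SE 0.57, limma adjusted p = 0.00953). Its call was lost without 0h B171227 (1.87, limma adjusted p = 0.131) and without 20h B161219 (2.10, limma adjusted p = 0.122), and with title code as a term (2.21, limma adjusted p = 0.107). The title code term cannot separate code from LPS within IM. Ifitm6 was 1.59 above 0h (SE 0.80, limma adjusted p = 0.254), Ifitm3 0.70 (SE 1.01, limma adjusted p = 0.763) and Ifitm2 0.46 (SE 0.62, limma adjusted p = 0.77). The neutrophil markers summed to 28141 and 34828 TPM in IM at 20h against 11176 and 22485 TPM at 0h, with Camp and Elane at 0 in both libraries of 0h, and the library with the higher sum at 20h was that with more Ifitm1. At 6h, too, A161219 held 56846 TPM of these markers and N160623 17231 TPM. Their part in the rise of Ifitm1 was not tested. Endothelial markers (8 of 8 detected) summed to 561 and 754 TPM at 0h and to 28.3 and 48.5 TPM at 20h.

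In iMo the members moved apart. Ifitm1 was at 58.2 (A161219) and 81.5 TPM (B161219) at 2h, at 65.4 (A161219) and 69.7 TPM (B161219) at 6h, and at 67.8 (A161219) and 70.3 TPM (B161219) at 20h, against 12.5 and 37.5 TPM at 0h. Every library after LPS lay above both libraries of 0h. Ifitm6 went the other way, from 909 and 1010.2 TPM at 0h to 565 (A161219) and 341 TPM (B161219) at 2h, 193 (A161219) and 85.9 TPM (B161219) at 6h, and 275 (A161219) and 220 TPM (B161219) at 20h. It lay wholly below 0h at all 3 times, and the 6h libraries were the lowest.

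Ifitm3 was at 3059 (A161219) and 4071 TPM (B161219) at 2h in iMo, at 3288 (A161219) and 3057 TPM (B161219) at 6h, and at 2039 (A161219) and 2247 TPM (B161219) at 20h. All 6 libraries lay below the 4778 and 5168 TPM of 0h. Ifitm2 was at 768 (A161219) and 1027 TPM (B161219) at 2h, at 645 (A161219) and 939 TPM (B161219) at 6h, and at 399 (A161219) and 475 TPM (B161219) at 20h. It overlapped 0h at 2h and 6h and lay below 0h at 20h.

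At 2h in iMo, where 32.4% of all genes were called, 1 of the 4 members was called. Ifitm1 rose by 2.04 (SE 0.57, limma adjusted p = 0.0326), with a median of 0.01 over the 4 members and -0.42 over all genes. At 6h, where 29.1% of all genes were called, 2 members were called. Ifitm1 rose by 2.07 (SE 0.57, limma adjusted p = 0.0387) and Ifitm6 fell by 2.40 (SE 0.80, limma adjusted p = 0.00957), with a median of -0.10 over the 4 and -0.48 over all genes. At 20h, where 22.2% of all genes were called, Ifitm1 rose by 1.93 (SE 0.57, limma adjusted p = 0.0439), with a median of -0.98 over the 4 and -0.31 over all genes. Ifitm6 had a difference of -1.65 at 20h (SE 0.80, limma adjusted p = 0.0812), Ifitm2 of -1.05 (SE 0.62, limma adjusted p = 0.114) and Ifitm3 of -0.90 (SE 1.01, limma adjusted p = 0.41). These comparisons share the 0h libraries.

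The spread of the AM libraries enters these tests, since the model estimates 1 variance per gene over all cell types. With only iMo libraries in the model, which was tried after the data were seen, all 4 members were called at 20h, with limma adjusted p-values of 0.0109 for Ifitm2, 0.0138 for Ifitm3 and 0.00649 for Ifitm6, all lower than at 0h. Ifitm6 was then called at 2h too (-0.70, limma adjusted p = 0.0445). Of all 8937 genes, this model called 2444 at 20h and 3318 at 2h, against 1981 and 2897 in the model of all cell types. Single libraries decide the Ifitm1 calls in iMo. Without 0h B171227, the library with 12.5 TPM, the differences at 2, 6 and 20h were 1.31, 1.35 and 1.20, with limma adjusted p-values of 0.375, 0.397 and 0.423, and without 0h A171227 they were 2.78, 2.81 and 2.68. Calls of Ifitm1 were lost also without either library of 2h (limma adjusted p = 0.0537 without A161219 and 0.199 without B161219), of 6h (0.104 and 0.145) or of 20h (0.135 and 0.173).

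The fall of Ifitm6 at 6h was not called without 0h A171227 (-2.34, limma adjusted p = 0.0561) or without 6h B161219 (-1.92, limma adjusted p = 0.116). With title code as a term it was called (-3.06, limma adjusted p = 0.0102), whereas Ifitm1 was called at none of the 3 times, with limma adjusted p-values of 0.159, 0.211 and 0.232. All iMo libraries of 0h carry 1 title code and all later ones another, so the title code term cannot separate code from LPS within iMo. Classical monocyte markers (7 of 7 detected) moved in the direction of Ifitm6, with sums of 8231 to 12800 TPM before LPS, and of 4818 to 6733, 4062 to 5135 and 2193 to 2970 TPM after 2, 6 and 20h. Neutrophil markers moved in the direction of Ifitm1, from 136 to 217 TPM before LPS, with Ngp at 0, to 339 to 679, 1797 to 3087 and 2895 to 2918 TPM after 2, 6 and 20h, with all 12 detected. Ifitm1 was as high at 2h, with neutrophil sums of 339 and 679 TPM, as at 6h and 20h. The part of either list was not tested.

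**Figure D3:**
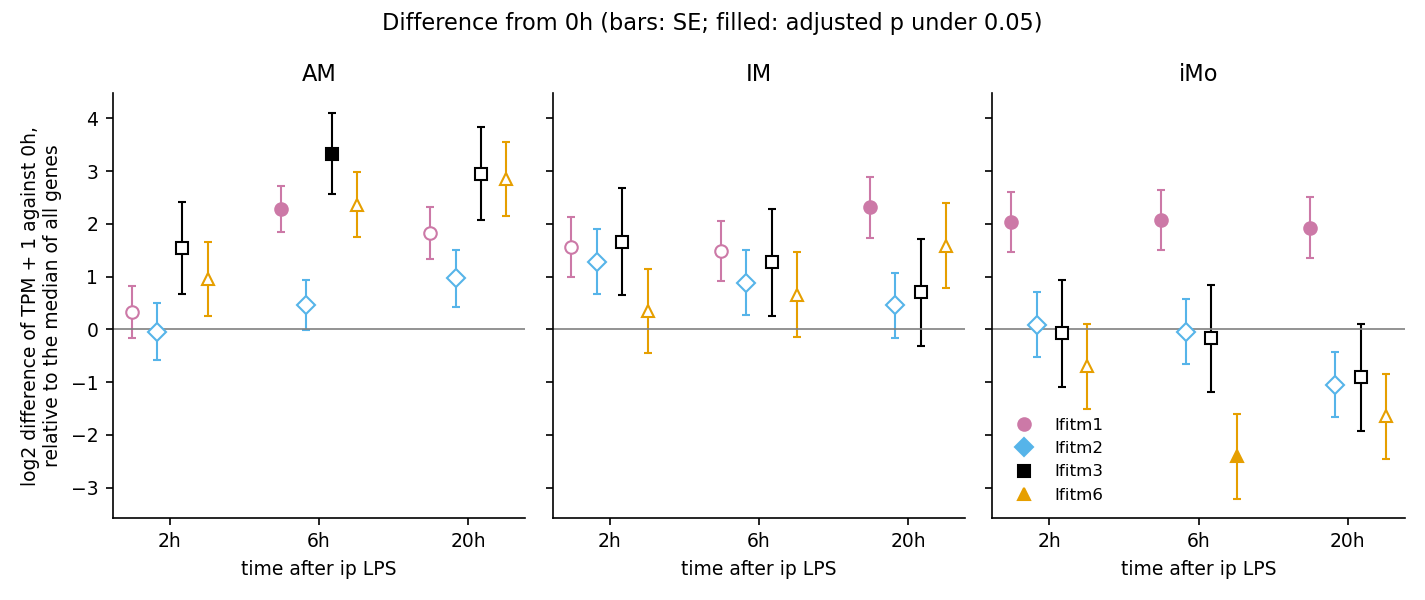
Log2 difference of TPM + 1 from 0h, relative to the median of all genes, for each Ifitm gene at 2, 6 and 20h of ip LPS in AM, IM and iMo, with bars for the SE and filled symbols for an adjusted p under 0.05. In iMo Ifitm1 lies at 1.93 to 2.07 and Ifitm6 at -0.70 to -2.40, while in AM at 6h Ifitm1 and Ifitm3 are filled.

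Between 6h and 20h no member was called in any cell type. The share of all genes called was 0.0336% in AM, 4.7% in IM and 4.03% in iMo. Of these 12 values 1 had an unadjusted limma p under 0.05, that of Ifitm1 in IM, at 0.86 (SE 0.57, limma adjusted p = 0.182). Of all 8937 genes, 350 in AM, 2108 in IM and 1727 in iMo had such a p. In IM the 20h libraries lay above the 6h libraries for Ifitm1 and Ifitm6. In iMo they lay below for Ifitm2 and Ifitm3 and above for Ifitm6.

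The gap between AM and the other cell types was found again at each time after LPS. Against AM at 2h, all 4 members were called higher in IM (54.6% of all genes called) and in iMo (39.9% of all genes called), with medians of 7.05 and 6.23. At 6h all 4 were called higher in IM (35.9% of all genes) and in iMo (29.1% of all genes), with medians of 5.49 and 4.26. At 20h all 4 were called higher in IM (18.5% of all genes) and in iMo (16.9% of all genes), with medians of 5.81 and 3.94. The size of the gap at 20h depended on the AM library. Without N160623 the iMo values were 1.31 for Ifitm2 (limma adjusted p = 0.0631) and 2.29 for Ifitm3 (limma adjusted p = 0.0569), no longer called, and without A161219 they were 4.63 and 7.75. The IM value of Ifitm3 was 2.76 without N160623 and 8.22 without A161219, and called in both.

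Between iMo and IM after LPS, 0 of the 4 members were called at 2h (2.45% of all genes), 0 at 6h (3.21%) and 1 at 20h (1.25%). At 2h and at 6h 1 member had an unadjusted limma p under 0.05, Ifitm1 both times. Of all 8937 genes, 1717 had such a p at 2h and 1243 at 6h. Ifitm1 was lower in iMo by 1.86 at 2h (SE 0.57, limma adjusted p = 0.171), by 1.78 at 6h (SE 0.57, limma adjusted p = 0.136) and by 2.82 at 20h (SE 0.57, limma adjusted p = 0.0061), and at all 3 times both iMo libraries lay below both IM libraries. The call at 20h was lost without IM B161219 (-2.62, limma adjusted p = 0.135), iMo A161219 (-2.79, limma adjusted p = 0.0824) or iMo B161219 (-2.86, limma adjusted p = 0.0643), and one at 6h appeared without IM N160623 (-2.51, limma adjusted p = 0.0232). Ifitm6 passed from above IM in iMo at 0h to below IM at 20h, at -1.93 (SE 0.80, limma adjusted p = 0.459). Ifitm2 and Ifitm3 overlapped between the 2 cell types at 2h and 6h, and were lower in both iMo libraries at 20h without passing the test.

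Whether the cell types differed in their responses was tested over the 3 times together with a moderated F test. Ifitm6 was called between iMo and AM (limma adjusted p = 0.00406), where 17.3% of all genes were called, and was the 1 member called. Its response in iMo lay below that in AM by 2.05 at 2h, 5.09 at 6h and 4.50 at 20h on the log2 scale, before any median was taken off. The call held without each of the libraries in turn, with limma adjusted p-values of 0.00111 to 0.0204. Ifitm3 had a limma adjusted p of 0.0842 in this test, and was called without AM 0h A171227 (limma adjusted p = 0.0345), AM 20h A161219 (0.024) or AM 20h N160623 (0.000926). Ifitm2 was called without AM 20h N160623 (limma adjusted p = 0.00398).

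Between IM and AM no member was called (26.5% of all genes), with limma adjusted p-values of 0.178 for Ifitm1 to 0.839 for Ifitm2. An unadjusted limma p under 0.05 was found for 0 members and for 3769 of all 8937 genes. Ifitm3 was called there without AM 20h N160623 (limma adjusted p = 0.00927), and Ifitm1 without IM 6h A161219 (limma adjusted p = 0.037). Between iMo and IM no member was called (3.75% of all genes), and 1 had an unadjusted limma p under 0.05, Ifitm6 (limma adjusted p = 0.179). Of all 8937 genes, 1172 had such a p. With only IM and iMo libraries in the model Ifitm6 was called (limma adjusted p = 0.0491), as with title code as a term (limma adjusted p = 0.00136).

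The time courses of the 24 interferon-stimulated genes are set beside those of the Ifitm genes. In IM, 22 rose at 2h, 16 at 6h and 3 at 20h, where 48.7, 25.5 and 12.4% of all genes were called in either direction. Counted in either direction, the list was near the share of all genes at 20h. Of all genes, 714, 414 and 362 were called higher at these times and 3642, 1861 and 750 lower. The 24 listed genes had medians of 4.32, 2.15 and 0.87, while the 4 Ifitm genes had medians of 1.42, 1.08 and 1.15. Cxcl10, a chemokine induced by interferons, went from a mean of 37.5 TPM at 0h to 7663 TPM at 2h in IM (8.99, limma adjusted p = 4.06e-06), and Rsad2, the antiviral enzyme viperin, from 28.3 to 1747 TPM (6.50, limma adjusted p = 2.55e-07). In iMo, 20 rose and 1 fell at 2h, 6 rose and 2 fell at 6h, and 1 rose and 6 fell at 20h. There 32.4, 29.1 and 22.2% of all genes were called in either direction, and counted so the list was near them at 6h and 20h. Of all genes, 752, 532 and 660 were called higher in iMo at these times and 2145, 2068 and 1321 lower. The medians of the list were 2.84, 0.99 and -0.51 beside 0.01, -0.10 and -0.98 for the Ifitm genes. Isg15, a ubiquitin-like protein, rose at all 3 times in iMo, from 26.2 TPM to 987, 226 and 97.6 TPM, although its call at 20h (limma adjusted p = 0.0374) was lost without any 1 of the 4 libraries compared (limma adjusted p of 0.0875 to 0.192). In AM, 1 rose at 2h (Rsad2, 3.03, limma adjusted p = 0.00761), 9 at 6h and 0 at 20h (limma, 5 at an unadjusted p under 0.05). Of all genes, 0.134, 1.3 and 0.112% were called in AM at these times in either direction. At 20h 805 of all 8937 genes had an unadjusted limma p under 0.05. The medians of the list in AM were 1.35, 1.54 and 0.61, and the Ifitm medians were 0.64, 2.32 and 2.34. The differences between the Ifitm genes and this list were not tested.

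Several of these counts rest on single libraries. In IM at 6h 5 of the 24 were called without 0h A171227 and 6 without 6h A161219, and at 20h 0 without 0h A171227 and 1 without B161219. In iMo at 6h 2 were called without 0h A171227 and 5 without any other library compared, and at 20h 3 without either A library and 1 without either B library. In AM at 6h 5 were called without A161219, and the call of Rsad2 at 2h was lost without either library of that time (limma adjusted p = 0.171 without N160623 and 0.199 without B161219). With title code as a term, 22, 5 and 0 were called in IM at 2, 6 and 20h, 11, 0 and 0 in iMo, and 0, 1 and 0 in AM.

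**Figure D4:**
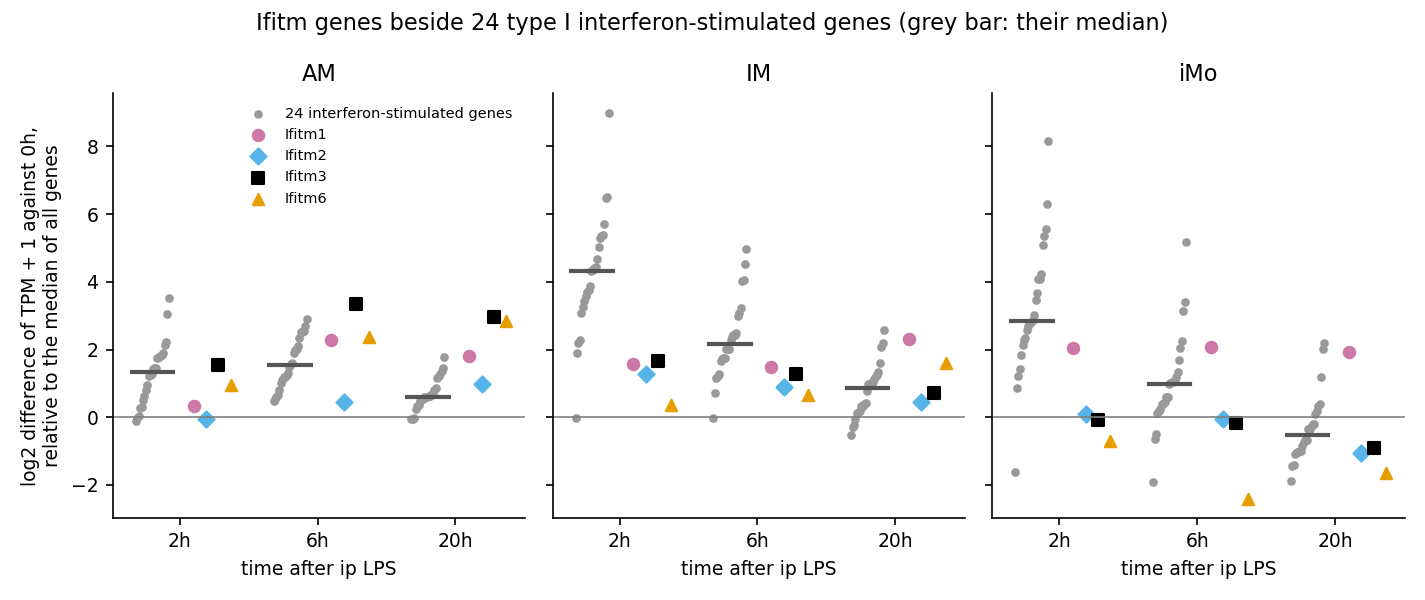
Log2 difference of TPM + 1 from 0h, relative to the median of all genes, for 24 type I interferon-stimulated genes (grey points, bar at their median) and the 4 Ifitm genes (symbols) at 2, 6 and 20h of ip LPS in each cell type. At 2h in IM the grey median is 4.32, and the Ifitm symbols lie between 0.35 and 1.66.

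Of 16 tested genes of interferon receptors and signalling, 4 rose and 2 fell in IM at 2h, and 5 rose and 2 fell in iMo at 2h. Counted in either direction, these numbers do not set the list apart from the 48.7 and 32.4% of all genes called there. Most of all genes called were lower, with 714 higher and 3642 lower in IM, and 752 higher and 2145 lower in iMo. Whether the list differed from all genes in its direction was not tested. Irf7 rose in IM from 200.1 to 1601 TPM (3.77, limma adjusted p = 0.000997), in iMo from 244 to 1312 TPM (2.81, limma adjusted p = 0.00881) and in AM at 6h from 2.29 to 40.8 TPM (3.60, limma adjusted p = 0.000392), where it was the 1 gene of the list called. Ifngr1, a chain of the interferon gamma receptor, fell in iMo by 2.21 at 2h, 2.25 at 6h and 1.87 at 20h (limma adjusted p = 0.00054, 0.000513 and 0.0047). Of the 6 genes tested for entry restriction and Ifitm modification, 2 rose and 1 fell at 2h in each of IM and iMo. The shares of all genes were again 48.7 and 32.4% in either direction. Bst2, the tether of budding viruses, rose in iMo from 72.8 to 354 TPM (2.67, limma adjusted p = 0.00727). Zdhhc20, an enzyme that attaches palmitate to Ifitm3, fell in IM from 11.8 to 1.73 TPM (-1.41, limma adjusted p = 0.00012) and in iMo from 13.2 to 3.48 TPM (-1.24, limma adjusted p = 0.00255). None of the 6 was called in AM at any time, and 1, 1 and 0 had an unadjusted limma p under 0.05 at 2, 6 and 20h. The shares of all genes called in AM at these times were 0.134, 1.3 and 0.112%. Of all 8937 genes, 283, 871 and 805 had an unadjusted limma p under 0.05. Single libraries decide part of these calls. Without iMo 0h A171227 or 2h B161219 the rise of Irf7 in iMo was not called (limma adjusted p = 0.0805 and 0.119), and 4 and 3 signalling genes were. Without 0h B171227 or 2h B161219 the rise of Bst2 was not called (limma adjusted p = 0.0763 and 0.104), and 1 entry gene was. In IM at 2h 1 entry gene was called without 0h A171227 or 2h A161219. The fall of Ifngr1 at 20h was lost without 0h A171227 (limma adjusted p = 0.0504). With title code as a term, Irf7 was called neither in AM at 6h nor in iMo at 2h (limma adjusted p = 0.109 and 0.495), and 0 entry genes were called in iMo at 2h.

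Of 8 other rows of the wider family, 2 passed the filter on low values, Ifitm5 and Ifitm10. Ifitm10, unlike the members, had its highest mean in AM at 0h, at 19.2 TPM against 8.92 in IM and 0.361 in iMo. It was lower in iMo than in AM (-3.96, limma adjusted p = 4.98e-08), while IM against AM did not pass the test (-0.90, limma adjusted p = 0.108). It fell in IM at all 3 times, to 0.779 TPM at 2h (-1.70, limma adjusted p = 0.00015). Ifitm5, best known from bone-forming cells, rose in IM from a mean of 0.955 to 7.25 TPM at 2h (2.78, limma adjusted p = 0.00187) and to 4.67 TPM at 6h (1.98, limma adjusted p = 0.0314). Of all genes, 48.7 and 25.5% were called in IM at these times in either direction. Ifitm5 passed the filter only through libraries after LPS. These were IM A161219 at 2h (10.2 TPM) and 6h (6.66 TPM), and iMo B161219 at 6h (5.17 TPM). Its rise is therefore given as a description. At 6h the call of Ifitm5 was lost without 0h A171227 (limma adjusted p = 0.0934), 0h B171227 (0.133) or 6h A161219 (0.252), and that of Ifitm10 without 6h A161219 (0.0521). With title code as a term neither gene was called in IM at any time.

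Across the 27 libraries, ordered by group mean, AM groups held the last 4 places of 12 for every member. Ifitm1 had all IM groups first, IM at 20h leading with 539 ± 159 TPM (SD, n = 2), and all iMo groups next. Ifitm3 was led by iMo at 0h with 4973 ± 276 TPM (SD, n = 2), followed by IM at 6h with 3833 ± 2390 TPM (SD, n = 2). Ifitm6 was led by IM at 20h with 1014 ± 228 TPM (SD, n = 2) and by iMo at 0h with 959.7 ± 71.4 TPM (SD, n = 2), which overlapped. Ifitm2 was led by iMo at 0h with 1140 ± 288 TPM (SD, n = 2), and its first 6 groups each overlapped the next. Of the 11 neighbouring pairs in each order, libraries overlapped in 6 for Ifitm1, 9 for Ifitm2, 8 for Ifitm3 and 8 for Ifitm6.

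The genes whose log2(TPM + 1) followed each member most closely over the 27 libraries were picked by Pearson r. They are given as a description, since the libraries share cell types and title codes. For Ifitm1 they were Pglyrp1 (r = 0.963), a peptidoglycan-binding protein of neutrophil granules, Ripor2 (0.951) and Il1r2 (0.949), the decoy receptor for interleukin 1. For Ifitm2 they were Fyb (0.983), an adaptor of immune cell signalling, Marcks (0.980) and Clec4a1 (0.976). Ifitm3 was followed by Clec4a1 (0.978), Fyb (0.975) and Plac8 (0.974), which is among the classical monocyte markers used here. Ifitm6 was followed by AB124611 (0.984), Cnn2 (0.977), a calponin that binds actin, and Fyb (0.975). In the plot of Ifitm levels against neutrophil markers, the library with the highest marker sum held 4.28 TPM of Ifitm1 in AM, 411 in IM and 65.4 in iMo. It had the most Ifitm1 in none of the 3 cell types, where the highest levels were 8.76, 651 and 81.5 TPM. The library with the lowest marker sum had the least Ifitm1 in each, at 0, 83.9 and 12.5 TPM. The relation of Ifitm1 to this sum was not tested.

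**Figure D5:**
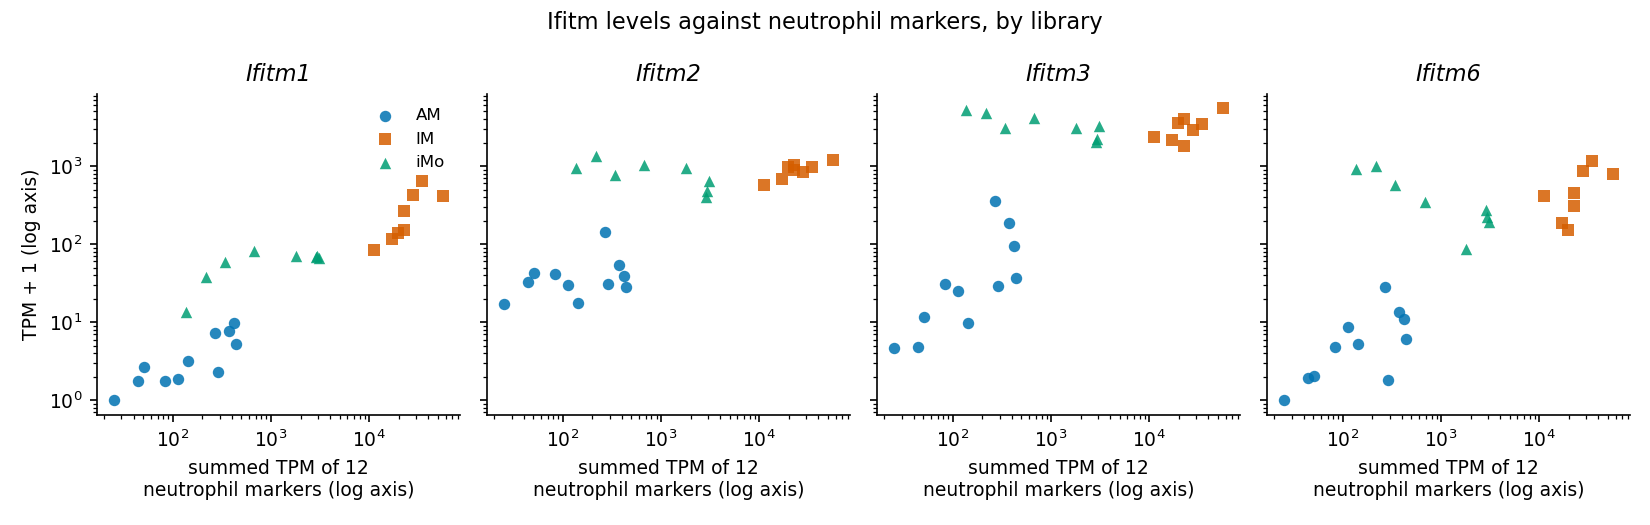
TPM + 1 of each Ifitm gene against the summed TPM of 12 neutrophil markers (both on log axes), with 1 point per library. IM libraries lie at 11176 to 56846 TPM of the markers. In each cell type the library with the lowest sum also has the lowest Ifitm1, and that with the highest sum does not have the highest Ifitm1. The relation was not tested.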

How the data were processed

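RNA of sorted lung AM, IM and iMo from mice was measured by RNA-seq, and the authors deposited 1 table of TPM. STAR, HOMER and the mouse build mm10 are listed, per the submitters' processing notes, without versions. Columns sum to 331473 to 551635 TPM rather than to a fixed total, TPM keeps no read depth, and precision therefore rests on replicates alone. The ribosomal repeat Rn45s took 4.33 to 33.3% of a column. All columns matched a sample's title. The last time point is 20h in the sample labels, which are followed here, but 22h in the design text.

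The 8937 genes at 5 TPM or more in at least 2 of the 27 libraries were tested on log2(TPM + 1) with limma 3.58.1 in R 4.3.3, with 1 coefficient for each of 12 groups, trend-moderated variances and Benjamini-Hochberg adjustment over these genes for each comparison. A gene was called at an adjusted p under 0.05. The median of all genes lay between -0.79 and 0.41 in the 24 pairwise comparisons and was subtracted from the log2 differences printed. F tests took the 3 times together. The procedure was tested on simulated data. Alternatives were other pseudocounts (0.5 and 5), no filter, rescaling without Rn45s and Lars2, quantile normalization, title code as a term, a replicate block, and each library left out. A model of only the cell types compared, and the alternatives for the other gene lists, were added after the data were seen. The members and gene lists were chosen with earlier results of these data known. All 4 members are described. Of other genes, the 3 with the highest correlation with each member are named, and examples within the lists were chosen after their values were seen.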

Additional observations from a re-analysis of the deposited data

Results flagged for a closer look

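Ifitm6 is given here because its response to ip LPS differed between iMo and AM over the 3 times (moderated F test, limma adjusted p = 0.00406). In iMo its mean went from 959.7 TPM at 0h to 140 TPM at 6h, and in AM from 1.45 TPM to 9.18 TPM. In AM at 6h all 3 libraries lay above all 4 of 0h, and in iMo both libraries lay below both of 0h. No explanation was tested. Among the 4 members no AM library at 0h stood so far from the other 3 that Dixon's gap test passed its critical value. The other groups, of 2 or 3 libraries, were not put to that test.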

How the results depend on the processing

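Of the member values that were called, none changed sign under any alternative, and the call was kept in 497 alternative values and lost in 44. Uncalled values changed sign relative to the median of all genes in 38 alternatives and became called in 36. The cause of these changes was not tested, apart from the smaller number of libraries where one was left out. TPM keeps no depth, so what read depth limits could not be stated, and levels near 0 in AM are the least precise.

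The number of the 4 members called changed as follows. With log2(TPM + 0.5) it was 0, 1 and 0 in iMo at 2, 6 and 20h against 0h. With log2(TPM + 5) it was 0 in AM at 6h, 2 in iMo at 20h and 1 in the difference of responses between iMo and IM. With no filter on low values it was 1 in AM at 6h and 0, 1 and 0 in iMo at 2, 6 and 20h. Rescaled without Rn45s and Lars2, 2 were called in AM at 20h, and with quantile normalization 1 in iMo at 6h. Both took the count in AM at 6h from 2 to 3. Title code as a term gave 2, 1, 2 and 2 for iMo against IM at 0, 2, 6 and 20h, 0 in AM at 6h, 0 in IM at 20h, 0, 1 and 0 in iMo at 2, 6 and 20h, and 2 and 1 in the differences of responses of iMo from AM and from IM. With only the cell types compared it was 1 in AM at 6h, 2 and 4 in iMo at 2h and 20h, and 1 in the difference between iMo and IM. Of all genes, these models called 93 in AM at 6h, and 3318 and 2444 in iMo at 2h and 20h.

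The letters and codes in the titles were not taken to pair the samples, since the labels give them no meaning and not every pair correlated over 0.1. Deviations from the group means correlated at -0.140 to 0.507 (median 0.0782) over 16 pairs of the same letter and code, with 8 over 0.1, against a median of -0.00859 over 44 other pairs, with 7 over 0.1. In groups of 2 libraries the deviations mirror each other, so other pairs repeat values of same-name pairs, many with the sign changed. The 2 medians therefore cannot decide whether the samples are paired. IM and iMo libraries of the same name correlated at 0.308 at 0h and 0.185 at 20h. With these names as a replicate block, 3, 1, 2 and 3 members were called for iMo against IM at 0, 2, 6 and 20h, among them at 0h Ifitm3 (1.12, limma adjusted p = 0.00951) and Ifitm6 (1.29, limma adjusted p = 0.0114), and Ifitm6 in iMo against IM at 2h was -0.25.

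With each library left out in turn, the number called ran from 0 to 3 in AM at 6h and at 20h, from 0 to 1 in IM at 20h, and from 0 to 1, 0 to 2 and 0 to 1 in iMo at 2, 6 and 20h. It ran from 2 to 4 for iMo against AM at 20h, from 0 to 1 for iMo against IM at 0, 6 and 20h, from 0 to 1 for the difference of responses between IM and AM, and from 1 to 3 for that between iMo and AM.

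Uncalled differences that changed sign were Ifitm2 in iMo at 2h with log2(TPM + 5) (-0.072) and with no filter (-0.55). With no filter they were also Ifitm6 in IM at 2h (-0.25) and, at 20h against 6h, Ifitm2 in IM (0.032) and Ifitm1 in iMo (0.13). Rescaling changed Ifitm2 in iMo at 6h (0.090). Quantile normalization changed Ifitm2 in AM at 2h (0.035) and in iMo at 6h (0.64), Ifitm6 in IM at 2h (-0.44), Ifitm3 in iMo against IM at 2, 6 and 20h (0.40, 0.48 and 0.37) and Ifitm2 there at 6h (0.19). Title code changed Ifitm2 in AM at 2h (0.13) and in iMo at 6h (0.00095), and Ifitm6 in iMo against IM at 2h (-0.39). With 1 library left out, AM values at 2h ran from -0.20 to 0.82 for Ifitm1 and from -0.45 to 0.34 for Ifitm2, and Ifitm2 at 20h ran from -0.68 to 2.62. Those of AM at 20h against 6h ran from -1.17 to 0.28 for Ifitm1, -1.13 to 2.18 for Ifitm2, -3.09 to 2.36 for Ifitm3 and -0.85 to 1.85 for Ifitm6. In IM Ifitm6 ran from -0.18 to 0.85 at 2h and from -0.21 to 1.53 at 6h. In iMo Ifitm2 ran from -0.26 to 0.42 at 2h and from -0.41 to 0.31 at 6h, and Ifitm3 from -0.41 to 0.26 at 2h. In iMo against IM Ifitm6 ran from -0.18 to 0.89 at 2h, and at 6h Ifitm3 ran from -0.72 to 0.27 and Ifitm2 from -0.68 to 0.071.

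The median of all genes moved by up to 0.78 with quantile normalization, 0.66 with rescaling, 0.64 with no filter, 0.42 with title code and 0.33 with log2(TPM + 5), and by as much as -0.35 with the block. Counts of all genes called moved by over 1.5 times in 52 of 201 pairs of a comparison and an alternative. Title code as a term took them from 4356 to 1465, 2275 to 430 and 1112 to 184 in IM at 2, 6 and 20h, from 2897 to 594, 2600 to 375 and 1981 to 265 in iMo, and from 12 to 7, 116 to 15 and 10 to 3 in AM. Rescaling took them from 12 to 24, 116 to 253 and 10 to 26 in AM, and from 1112 to 1776 in IM at 20h. Quantile normalization took them from 12 to 20, 116 to 256 and 10 to 28 in AM, from 1112 to 2220 in IM at 20h and from 2326 to 3493 for IM against AM at 0h. With no filter they went from 116 to 67 and 10 to 4 in AM at 6h and 20h and from 631 to 975 for iMo against IM at 0h, which the block took to 1167. For AM against 0h they were also 20 with log2(TPM + 0.5) at 2h, and 35 with log2(TPM + 5) and 3 with AM alone at 20h. Between 20h and 6h, AM went from 3 to 12 with log2(TPM + 5), 1 with no filter, 13 with quantile normalization, 7 with rescaling and 10 with title code. IM went from 420 to 146 with no filter, 188 with IM alone, 792 with quantile normalization and 1308 with rescaling, and iMo from 360 to 1052 with quantile normalization, 1160 with rescaling and 802 with title code. For iMo against IM quantile normalization, the block and rescaling gave 337, 403 and 1006 for 219 at 2h, and 722, 431 and 1185 for 287 at 6h, where title code gave 459, and the block gave 245 for 112 at 20h. Rescaling took IM against AM at 6h from 3208 to 4987, and quantile normalization took iMo against AM at 20h from 1514 to 2384. The difference of responses between iMo and AM went from 1550 to 1018 with no filter, 2454 with rescaling and 2338 with title code, and that between iMo and IM from 335 to 503 with quantile normalization and 530 with rescaling.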
